A study of Mus musculus with 6 samples.

Results

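ATP-binding cassette (ABC) transporters couple ATP hydrolysis to the movement of lipids, drugs, metabolites and peptides across membranes, and their genes fall into the subfamilies Abca to Abcg. Here they were followed in single nuclei of the mouse colon after 7 days of stress or dexamethasone. The members were all genes whose symbol is Abc, a subfamily letter from a to g and a digit, which gave 50 of the 31053 genes counted in each library. By subfamily there were 16 Abca, 10 Abcb, 10 Abcc, 4 Abcd, 1 Abce, 3 Abcf and 6 Abcg genes. In the nuclei kept, the 50 genes together held 22981 unique molecular identifiers (UMIs, 1 for each RNA molecule counted), 0.177% of all. Every member had at least 1 UMI, and 6 had fewer than 30 (Abcb5, Abca15, Abcc12, Abcb11, Abca17 and Abca4).

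The nuclei came from whole colon tissue of wild-type C57BL/6J mice and were sorted for DAPI and for INTACT positivity, INTACT being a tag on the nuclear envelope; the labels call them nuclei of the enteric nervous system. The 3 Stress libraries followed daily restraint for 7 days, the single Dexamethasone library followed injections of this synthetic glucocorticoid for 7 days, and the 2 Control libraries carry only the label of a control treatment. Age, sex, the number of animals in a library and the driver of the INTACT tag are not given in the sources used here, so p-values measure only the spread between libraries, which may be technical. The Stress and Dexamethasone comparisons share both Control libraries, and the Dexamethasone comparisons rest on 1 library whose spread was taken from the others.

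Of 11040 barcodes, 3461 had at least 300 genes and at most 5% mitochondrial UMIs, and 3430 remained once 31 predicted doublets were removed; 17 barcodes occurred in more than 1 library. Libraries held 6057994 to 14838057 UMIs, and the median UMI count of a kept nucleus lay between 1628.5 and 3970. The median mitochondrial share of all barcodes was 13.4%, 10.9% and 4.44% in Stress 1, 2 and 3, 5.98% in Dexamethasone and 8.80% and 19.8% in Control 1 and 2. Nuclei were clustered without the ABC genes, and classes were named from marker lists. All 12 glial, 12 epithelial, 10 smooth muscle and 10 fibroblast markers had at least 1 UMI in the class named from them. So did 11 of 12 neuronal ones, Tubb3 being at 0. This count does not separate classes, as glia-like nuclei also held a UMI of all 12 epithelial, 10 smooth muscle and 10 fibroblast markers. By summed level, glia-like nuclei had 3868 to 6396 CPM of the glial markers and 362 to 1015 CPM of the epithelial ones. Glia-like nuclei numbered 124, 118 and 183 in Stress, 115 in Dexamethasone and 200 and 138 in Control, and fibroblast-like nuclei 41, 35 and 45 in Stress, 28 in Dexamethasone and 31 and 27 in Control. Epithelium-like nuclei, which the sort label does not cover, numbered 79, 180 and 26 in Stress, 6 in Dexamethasone and 128 and 23 in Control. Levels below are CPM, a gene's UMIs per 1000000 UMIs of all genes in that class and library; they are not corrected for gene length and are not compared between genes.

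As background, Abca1 passes cholesterol and phospholipid to apolipoprotein A-I, and the ABCA6-like group (Abca5, Abca6, Abca8a, Abca8b and Abca9) lies side by side on mouse chromosome 11; human ABCA8 has been tied to sphingomyelin production in oligodendrocytes. Abcb1a encodes P-glycoprotein, the drug efflux pump of the intestinal brush border and of brain capillaries. Abcc8 and Abcc9 encode the sulphonylurea receptors SUR1 and SUR2, which transport nothing themselves and form ATP-sensitive potassium channels with Kir6 subunits.

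The start regions of Abca8a and Abcb1a are shown because these 2 genes carry the calls below, and those of Abca8b and Abca1 because they are described beside Abca8a (RefSeq, GRCm38.p6, 250 bases before to 50 after the annotated start, 5′ to 3′ on the gene's strand; capitals mark the 4 kinds of motif named below):
Abca8a, chr11:110095888-110096187, minus strand: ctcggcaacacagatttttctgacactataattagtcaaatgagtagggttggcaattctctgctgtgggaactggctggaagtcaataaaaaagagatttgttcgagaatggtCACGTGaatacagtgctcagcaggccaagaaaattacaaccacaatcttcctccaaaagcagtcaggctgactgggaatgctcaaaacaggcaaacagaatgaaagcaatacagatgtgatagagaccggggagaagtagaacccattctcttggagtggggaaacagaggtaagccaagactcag
Abca8b, chr11:109995796-109996095, minus strand: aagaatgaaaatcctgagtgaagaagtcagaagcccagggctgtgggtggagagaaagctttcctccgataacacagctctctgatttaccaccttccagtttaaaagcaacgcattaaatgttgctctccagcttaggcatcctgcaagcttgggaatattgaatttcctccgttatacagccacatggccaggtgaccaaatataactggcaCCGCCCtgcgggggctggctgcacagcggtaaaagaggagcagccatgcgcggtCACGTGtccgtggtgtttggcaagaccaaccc
Abca1, chr4:53159846-53160145, minus strand: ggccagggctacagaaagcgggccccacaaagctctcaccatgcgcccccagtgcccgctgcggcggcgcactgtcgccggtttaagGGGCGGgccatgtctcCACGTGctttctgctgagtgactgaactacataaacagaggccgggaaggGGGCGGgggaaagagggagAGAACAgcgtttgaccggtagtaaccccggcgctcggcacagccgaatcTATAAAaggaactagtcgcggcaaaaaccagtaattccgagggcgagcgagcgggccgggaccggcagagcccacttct
Abcb1a, chr5:8566841-8567140, plus strand: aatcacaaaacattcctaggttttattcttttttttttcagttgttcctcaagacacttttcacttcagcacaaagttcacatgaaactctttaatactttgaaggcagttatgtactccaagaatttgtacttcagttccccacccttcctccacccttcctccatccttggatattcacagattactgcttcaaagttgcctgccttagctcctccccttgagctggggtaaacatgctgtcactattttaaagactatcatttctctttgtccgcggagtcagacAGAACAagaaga
The letters CACGTG, an E-box, stand 136 bases before the start of Abca8a, 18 bases after that of Abca8b and 147 bases before that of Abca1. Searched on both strands, CACGTG is present in 7.15% of the 32817 mouse promoters of this length. GGGCGG, a GC box held by 35.6% of them, was found once in Abca8b, on the other strand, and 2 times in Abca1. Abcb1a held neither motif. AGAACA, part of the glucocorticoid response element and held by 19% of all promoters, was found 78 bases before the start of Abca1 and 38 bases after that of Abcb1a. TATAAA, held by 13.6%, was found in Abca1 alone of the 4. The RefSeq start of Abcb1a used here lies upstream of its GENCODE gene entry, which begins at chr5:8660077. AGGTCA, part of many nuclear receptor sites and held by 16.3% of all promoters, was found in none of these windows. The 38 members with a promoter in this set had 45 promoters, and a member was counted if any of its promoters held the motif. Counted so, the E-box occurred in 6 members, the GC box in 18 and the glucocorticoid motif in 11. The nuclear receptor motif occurred in 5 and the TATA motif in 6. The shares above are per promoter, so these member counts are not compared with them. A match is a description of letters and not a site.

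Levels by class are described without a test. By the rule that a gene's pooled level in one class be at least 2 times the next class and rest on 30 UMIs there, 13 members were assigned to a class. The ranking left out vascular endothelium-like nuclei, at most 9 in a library, so highest and next class do not cover them. The assigned class was highest in every library compared except for Abca9 (5 of 6), Abca2 and Abcf1 (4 of 6) and Abcg5 (4 of 5). Among lipid transporters, Abca8b was highest in glia-like nuclei, with a pooled level of 267 CPM against 102 CPM in fibroblast-like nuclei, and was highest there in 6 of 6 libraries. Abca8a was also highest in glia-like nuclei in 6 of 6 libraries, at 610 CPM pooled, but its fibroblast-like level of 417 CPM was too close for the rule. Abca8a pooled to 9.50 CPM in neuron-like nuclei. Abca8b pooled to 80.6 CPM in neuron-like nuclei, below its fibroblast-like level.

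Within the glia-like class the 2 genes were uneven. In cluster 9, Abca8a reached 778, 1515 and 1878 CPM in Stress, 922 CPM in Dexamethasone and 1588 and 671 CPM in Control, and pooled to 1337 CPM, against 549 CPM in cluster 12 and 495 CPM in cluster 10. Abca8b reached 898, 900 and 1324 CPM in cluster 9 in Stress, 342 CPM in Dexamethasone and 938 and 651 CPM in Control. Its pooled level was 884 CPM there, 151 CPM in cluster 12 and 211 CPM in cluster 10. Cluster 9 thus held the highest glial level of both genes. Ttn was the leading gene of cluster 10. At a finer clustering (resolution 1.5) a glia-like cluster of 221 nuclei was led by Ttn, Myh8 and Neb. In it 8 of the 12 glial markers were found in at least 10% of nuclei. The part of these nuclei in the glia-like levels was not tested.

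**Figure D1:**
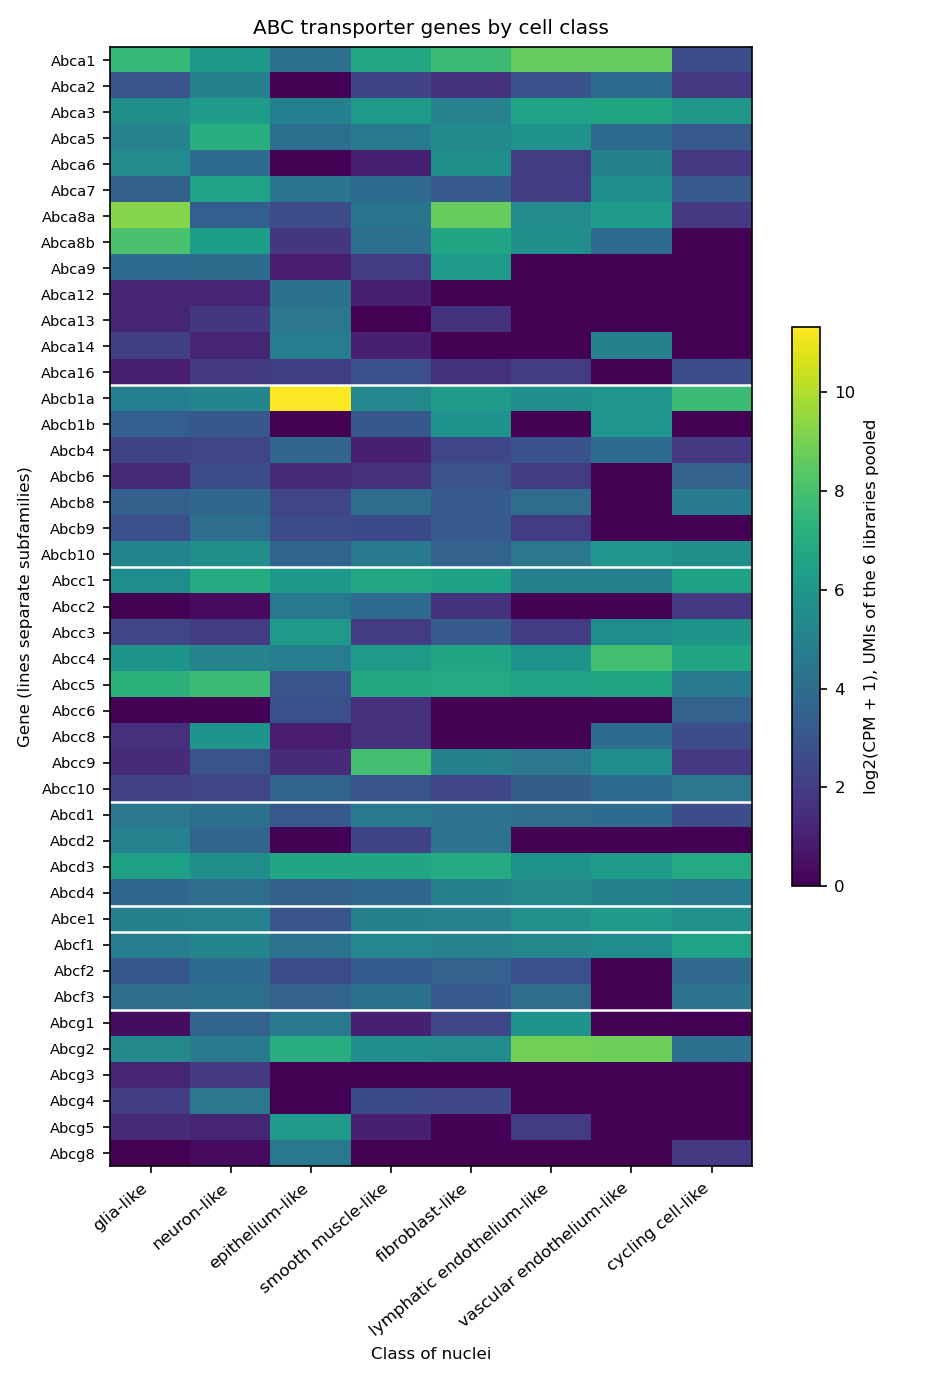
Pooled level of 43 members with at least 30 UMIs (rows) in 8 classes of nuclei (columns), as log2(CPM + 1). Abcb1a stands out in the epithelium-like column and Abca8a in the glia-like and fibroblast-like columns.

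The other genes of the chromosome 11 row differed in class. On GRCm38 they run Abca8b (chr11:109932190-109995845), Abca8a (chr11:110025634-110095978), Abca9 (chr11:110100749-110168196), Abca6 (chr11:110176820-110251776) and Abca5 (chr11:110269369-110337716), each entry covering exons, introns and untranslated regions. Abca9 was highest in fibroblast-like nuclei, at 40.6, 68.7 and 101 CPM in Stress, 85.9 CPM in Dexamethasone and 38.2 and 36.8 CPM in Control, and pooled to 68.1 CPM against 15.1 CPM in neuron-like nuclei. Abca5, a lysosomal member, was highest in neuron-like nuclei at 135 CPM pooled, against 55.0 CPM in lymphatic endothelium-like nuclei. Abca6 pooled to 48.9 CPM in fibroblast-like and 42.9 CPM in glia-like nuclei, which the rule does not separate. The transcripts of Abca8a and Abca8b share 105 runs of 50 bases, 1.64% of those in Abca8a, and Abca8b overlaps the predicted gene Gm11697 on the other strand.

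**Figure D2:**
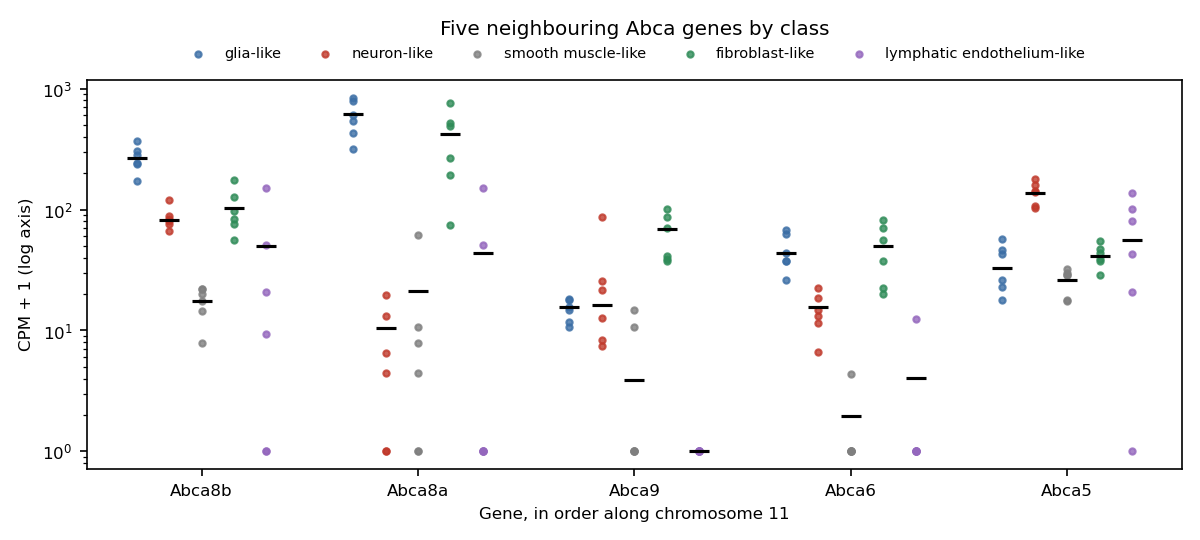
Level in CPM + 1 (log axis) of Abca8b, Abca8a, Abca9, Abca6 and Abca5 by class, in their order on chromosome 11; points are libraries and bars are the pooled level. Abca8a is high in glia-like and fibroblast-like nuclei, Abca5 in neuron-like nuclei.

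Abca1 lay lower in glia-like and neuron-like than in lymphatic endothelium-like nuclei. Its pooled level was 404 CPM in lymphatic endothelium-like, 217 CPM in fibroblast-like, 189 CPM in glia-like, 110 CPM in smooth muscle-like and 64.7 CPM in neuron-like nuclei. Among other Abca genes, Abca7, a phospholipid transporter whose human form is an Alzheimer's disease risk gene, was highest in neuron-like nuclei at 90.9 CPM, against 20.7 CPM in epithelium-like nuclei. Abca2, an endosomal and lysosomal lipid transporter, pooled to 30.8 CPM in neuron-like nuclei, against 6.8 CPM in glia-like nuclei.

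Among the ranked classes, the multidrug transporter Abcb1a was highest in epithelium-like nuclei. In epithelium-like nuclei it had 2163, 2930 and 1814 CPM in Stress, 272 CPM in the 6 Dexamethasone nuclei and 2636 and 2345 CPM in Control. The 5 libraries with at least 10 such nuclei lay between 1814 and 2930 CPM, and the Dexamethasone value stood apart on 11 UMIs. Pooled, the level was 2562 CPM, 11.8 times the 218 CPM of cycling cell-like nuclei, and glia-like and neuron-like nuclei pooled to 28.7 and 34.9 CPM. Cycling cell-like nuclei themselves held 2830 to 4170 CPM of the 12 epithelial markers in each library, against 362 to 1015 CPM in glia-like nuclei. Clusters 4, 17 and 21, unnamed but with the epithelial list as their best match, were not ranked. The epithelium-like class is thus clusters 0, 2 and 8 and does not cover all epithelial nuclei. Abcb1a shares 889 runs of 50 transcript bases with Abcb1b, 16.3% of those in Abcb1a, so some reads may match both genes. The effect of such reads on the counts was not examined. Abcg5, one subunit of a sterol exporter of gut and liver, pooled to 66.4 CPM in epithelium-like nuclei and 3.06 CPM in lymphatic endothelium-like nuclei; it overlaps its partner Abcg8 on the other strand. Abca14 pooled to 25.7 CPM in epithelium-like nuclei and 3.39 CPM in glia-like nuclei.

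The sulphonylurea receptors separated by class. Abcc8 had 51.0, 48.2 and 54.4 CPM in neuron-like nuclei in Stress, 32.7 CPM in Dexamethasone and 82.9 and 85.2 CPM in Control, and its pooled level of 56.7 CPM was 10.4 times the next class. Abcc9 had 273, 221 and 290 CPM in smooth muscle-like nuclei in Stress, 195 CPM in Dexamethasone and 327 and 183 CPM in Control. Its pooled level was 248 CPM, 8.34 times that of fibroblast-like nuclei. Abcc8 and Abcc9 overlap Gm45486 and 5330439B14Rik on the other strand. Within neurons Abcc8 pooled to 143 CPM in cluster 16 and 35.7 CPM in cluster 7, and it reached 254 CPM in cluster 3, which was left out of the neuron-like class because the T cell marker Skap1 was among its 10 leading genes.

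Of the other efflux pumps, Abcg2, the breast cancer resistance protein, was highest in lymphatic endothelium-like nuclei, with 807, 576 and 481 CPM in Stress, 351 CPM in Dexamethasone and 547 and 449.5 CPM in Control. Pooled, it had 477 CPM there and 130 CPM in epithelium-like nuclei. Abcg4, a sterol exporter, pooled to 21.3 CPM in neuron-like nuclei, 4.41 times the next class. Abcf1, a translation factor that spans no membrane, pooled to 95.3 CPM in cycling cell-like nuclei on 35 UMIs, 2.40 times the next class. The mitochondrial gene Abcb10, the peroxisomal Abcd3 and the multidrug pumps Abcc1, Abcc4 and Abcc5 had no class at 2 times the next.

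Genes whose log2(CPM + 10) followed the named members most closely over 41 class-by-library sums were ranked among 9804 genes; these sums share libraries and classes, and no test was made. For Abcb1a they were Themis3 (Pearson's r = 0.909), Cdh1 (r = 0.904), Cxadr (r = 0.901), Ms4a8a (r = 0.899) and Rffl (r = 0.897). For Abca8a they were Fbln2 (r = 0.920), Acss3 (r = 0.918), Tnfaip6 (r = 0.916), Galnt16 (r = 0.905) and Olfml1 (r = 0.902). For Abca8b they were Scn7a (r = 0.928), Dock10 (r = 0.927), Sntb1 (r = 0.917), Adam23 (r = 0.888) and Ppp2r2b (r = 0.887).

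Stress was compared with Control in 5 classes and Dexamethasone with Control in 4, on UMI sums per class and library. Across these 9 comparisons 2 member tests passed an adjusted p of 0.05. Each comparison tested 6 to 25 members, and 0% to 5.91% of all genes tested passed in it. Abca8a was higher in Stress in fibroblast-like nuclei, and Abcb1a was lower in Dexamethasone in glia-like nuclei. Both calls rest on few UMIs, and both end under other settings given below. No member passed in neuron-like, epithelium-like or smooth muscle-like nuclei.

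Abca8a had 515, 756 and 486 CPM in fibroblast-like nuclei in Stress, against 191 and 73.6 CPM in Control, from 38, 66 and 53 UMIs in Stress and 10 and 4 UMIs in Control. Every Stress library lay above both Control libraries, and Dexamethasone lay between with 268 CPM from 25 UMIs. The Stress difference was 2.05 ± 0.45 on the log2 scale (SE; 3 Stress against 2 Control libraries; adjusted p = 0.0297, edgeR). Abca8a was the 1 of 6 members tested that passed, where 2.15% of all genes tested did in either direction, 1.43% being higher and 0.717% lower; 2 members did not overlap between groups, as 28.2% of all genes did not. DESeq2 also called it, at 2.06 (adjusted p = 0.0301), and no other member. The call ended without Control 2 (log2 difference 1.57, adjusted p = 0.241), without Stress 1 (2.13, adjusted p = 0.0767), without Stress 2 (1.83, adjusted p = 0.135), without the mitochondrial filter (1.99, adjusted p = 0.0800) and with stricter nucleus filters (1.96, adjusted p = 0.101), all in edgeR. Without Control 1 the difference was 2.87 (adjusted p = 0.0270, edgeR).

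Other cells' markers in the fibroblast-like class were measured beside this. The 12 glial markers, 10 of them with a UMI and Entpd2 and Kcna1 at 0, summed to 393, 309 and 321 CPM in Stress, 268 CPM in Dexamethasone and 325 and 221 CPM in Control. The 5 mesothelial markers, each with a UMI, summed to 81.3, 103 and 394 CPM in Stress, 0 CPM in Dexamethasone and 19.1 and 0 CPM in Control, so they were higher in every Stress library. The 4 markers of interstitial cells of Cajal, each with a UMI, summed to 244, 252 and 394 CPM in Stress, 10.7 CPM in Dexamethasone and 172 and 92.0 CPM in Control, and were also above Control in every Stress library. The 10 fibroblast markers summed to 4986, 5143 and 4292 CPM in Stress, 6430 CPM in Dexamethasone and 5406 and 8431 CPM in Control, and were lower in every Stress library. At a finer clustering (resolution 1.5) fibroblast-like nuclei split into clusters of 105 and 101 nuclei. The larger was led by Adamdec1 and Bmp5, the smaller by Gfpt2 and C7. The share of each per library was not measured. The part of these markers and clusters in the Abca8a difference was not tested.

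In the same class Abca1 had 285, 195 and 266 CPM in Stress, against 57.3 and 129 CPM in Control, a log2 difference of 1.29 that did not pass (adjusted p = 0.280, edgeR). Abca1 had 268 CPM in Dexamethasone, and that log2 difference from Control was 1.48 ± 0.62 (adjusted p = 0.282, edgeR). Abca8a in Dexamethasone differed from Control by 1.00 ± 0.60 on the log2 scale (adjusted p = 0.566, edgeR). Of the 9 members tested in Dexamethasone fibroblast-like nuclei none passed, 2 had an unadjusted p under 0.05 and DESeq2 called 0, where 2.41% of all genes tested passed, 2.16% higher and 0.244% lower, and 12% had an unadjusted p under 0.05. Dexamethasone lay outside Control for 5, where 66.5% of all genes did.

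Further Dexamethasone values in fibroblast-like nuclei covered peroxisomal and multidrug members, and none of those named passed. Abcd3, which brings fatty acids into peroxisomes, had 32.2 CPM in Dexamethasone, against 153 and 166 CPM in Control, a log2 difference of -2.27 ± 0.89 (adjusted p = 0.229, edgeR). Abcb1a had 32.2 CPM in Dexamethasone, against 95.5 and 147 CPM in Control (log2 difference -1.89, adjusted p = 0.601, edgeR). Both members lay below both Control libraries, on 3 Dexamethasone UMIs each. Abcc1 had 85.9 CPM in Dexamethasone, against 19.1 and 92.0 CPM in Control, and Abca8b had 75.1 CPM in Dexamethasone, against 95.5 and 55.2 CPM in Control, so neither left the Control range.

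**Figure D3:**
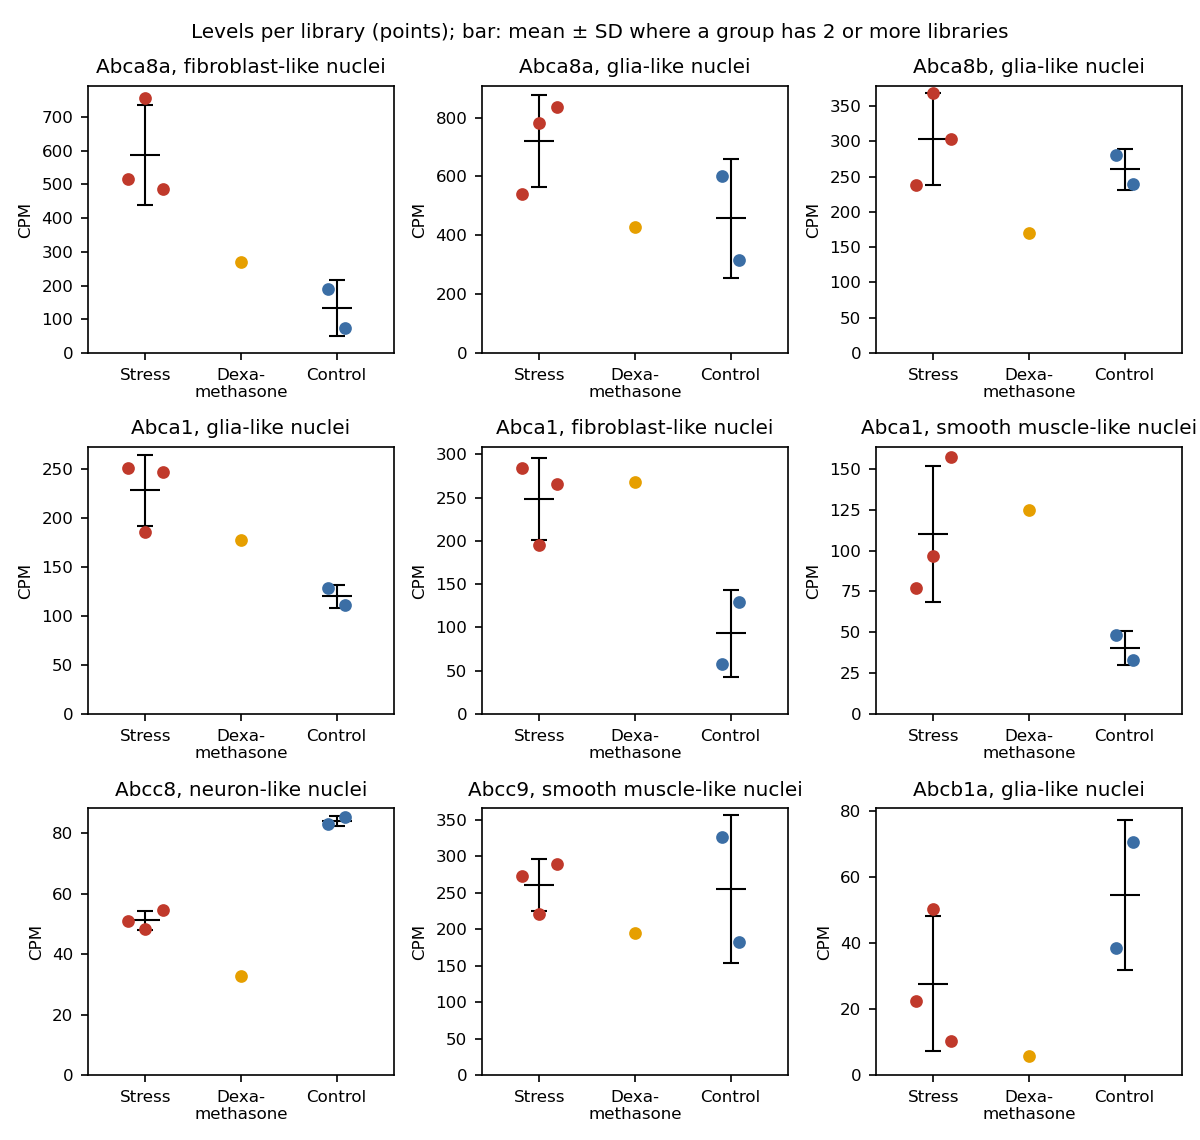
Level in CPM of Abca8a, Abca8b, Abca1, Abcc8, Abcc9 and Abcb1a in chosen classes, with 1 point per library and bars giving mean ± SD for Stress (n = 3), Dexamethasone (n = 1, no SD) and Control (n = 2). Abca8a in fibroblast-like nuclei is above Control in all 3 Stress libraries, and Abcb1a in glia-like nuclei is lowest in Dexamethasone.

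In glia-like nuclei none of the 18 members tested passed in Stress. Of these, 3 had an unadjusted p under 0.05 and were higher and 1 lower, DESeq2 called 0, and 2.03% of all genes tested passed, 1.5% being higher and 0.535% lower. By unadjusted p, 13.1% of all genes were under 0.05. The groups did not overlap for 4 members, where 29.1% of all genes did not. The median log2 difference of the members was 0.14, and -0.01 over all genes.

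Abca1 had the smallest p in these nuclei. It had 251, 186 and 248 CPM in Stress, against 128 and 112 CPM in Control, from 78, 89 and 215 UMIs in Stress and 60 and 49 UMIs in Control. All 3 Stress libraries were above both Control libraries, but the log2 difference of 0.88 ± 0.23 missed the threshold (adjusted p = 0.0629, edgeR). It passed without a filter on low counts (adjusted p = 0.0433, edgeR) and without the mitochondrial filter (adjusted p = 0.0497, edgeR), while in cluster 10 alone the difference was 0.55 (adjusted p = 0.432, edgeR). Glial make-up moved with the groups: cluster 12 held 6.45%, 17.8% and 37.7% of glia-like nuclei in Stress, 67.0% in Dexamethasone and 3.5% and 2.90% in Control. The 12 glial markers, each with a UMI, summed to 5434, 6396 and 6231 CPM in Stress, 5545 CPM in Dexamethasone and 4792 and 3868 CPM in Control. The 9 lymphatic endothelial marker entries (Ccl21a has 2, of which 1 is at 0) summed to 93.5, 103 and 149 CPM in Stress, 223 CPM in Dexamethasone and 60.0 and 61.6 CPM in Control. Both sums were above Control in every Stress library, and their part in the Abca1 difference was not tested.

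The ABCA6-like genes did not pass in Stress glia-like nuclei. Abca8a had 541, 783 and 835 CPM in Stress, against 602 and 315 CPM in Control, and the groups overlapped (log2 difference 0.61 ± 0.26, adjusted p = 0.336, edgeR). Without Control 1 the difference was 1.17 and passed (adjusted p = 0.0278, edgeR), and without Control 2 it was 0.21 (adjusted p = 0.838, edgeR). Abca8b had 238, 368 and 303 CPM in Stress, against 281 and 240 CPM in Control, a log2 difference of 0.18 ± 0.21 (adjusted p = 0.790, edgeR). Cluster 9, where both genes were high, held 12.1%, 22.9% and 17.5% of glia-like nuclei in Stress and 15% and 14.5% in Control. Abca5 had 41.9, 16.7 and 21.9 CPM in Stress, against 55.7 and 45.6 CPM in Control, a log2 difference of -1.06 ± 0.41 (adjusted p = 0.259, edgeR). Every Stress library was below Control for Abca5, whereas Abca6, with 61.2, 25.1 and 42.6 CPM in Stress and 36.4 and 66.2 CPM in Control, overlapped.

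Of the remaining glial values in Stress, Abcb10, a mitochondrial transporter linked to haem synthesis, had 45.1, 48.1 and 36.9 CPM in Stress, against 25.7 and 20.5 CPM in Control (log2 difference 0.83 ± 0.38, adjusted p = 0.374, edgeR). Abcb10 overlaps Gm20388 and Gm45890 on the other strand. Abcb1a had 22.6, 50.2 and 10.4 CPM in Stress, against 38.5 and 70.7 CPM in Control, and the groups overlapped (log2 difference -1.11 ± 0.52, adjusted p = 0.391, edgeR).

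In Dexamethasone glia-like nuclei, Abcb1a was the 1 of 21 members tested that passed, where 5.91% of all genes tested did, 5.33% higher and 0.585% lower. It had 5.88 CPM in Dexamethasone from 4 UMIs, against 38.5 and 70.7 CPM in Control from 18 and 31 UMIs. The Dexamethasone library was below both Control libraries, by -3.07 ± 0.85 on the log2 scale (adjusted p = 0.0391, edgeR). By DESeq2 it did not pass (-3.10, adjusted p = 0.112) and no other member did. It also did not pass without Control 2 (-2.60, adjusted p = 0.161, edgeR), without the mitochondrial filter (-1.03, adjusted p = 0.117, edgeR), or with stricter nucleus filters (adjusted p = 0.0763, edgeR), where Dexamethasone had 0 UMIs and the fitted -6.74 is no bound. It passed at -3.44 without Control 1 (adjusted p = 0.0184, edgeR) and at -3.82 with counts thinned (adjusted p = 0.0264, edgeR).

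Abcb1a was far higher in epithelium-like than in glia-like nuclei, so epithelial RNA was measured beside it. The 12 epithelial markers summed in glia-like nuclei to 519, 816 and 362 CPM in Stress, 475 CPM in Dexamethasone and 518 and 1015 CPM in Control. Per 100 epithelial marker UMIs, glia-like nuclei held 4.35, 6.15 and 2.87 Abcb1a UMIs in Stress, 1.24 in Dexamethasone and 7.44 and 6.97 in Control. The same ratio in epithelium-like nuclei was 18.8, 22.9 and 16.7 in Stress, 2.31 in Dexamethasone and 29.4 and 23.5 in Control, and in neuron-like nuclei 12.2, 7.16 and 9.06 in Stress, 3.05 in Dexamethasone and 14.4 and 14.4 in Control. In these 3 classes the Dexamethasone ratio was the lowest and the Control ratios were the highest. Those Dexamethasone ratios also rest on few Abcb1a UMIs: 4 in glia-like, 11 in neuron-like and 11 in the 6 epithelium-like nuclei. The order differed in the other classes, on 0 to 21 Abcb1a UMIs a library. In smooth muscle-like nuclei the ratio was 8.24, 7.09 and 5.17 in Stress, 4.18 in Dexamethasone and 7.02 and 2.33 in Control, and in fibroblast-like nuclei 14.04, 4.29 and 5.04 in Stress, 4.62 in Dexamethasone and 13.2 and 9.195 in Control. In lymphatic endothelium-like nuclei it was 0, 8.57 and 1.79 in Stress, 3.74 in Dexamethasone and 5.88 and 7.5 in Control, and in cycling cell-like nuclei 6.01, 7.47 and 3.88 in Stress, 5.19 in Dexamethasone and 9.50 and 7.97 in Control. Smooth muscle markers in glia-like nuclei summed to 96.7, 92.1 and 211 CPM in Stress, 519 CPM in Dexamethasone and 55.7 and 66.2 CPM in Control. The part of RNA from other cells in the Abcb1a difference was not tested.

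**Figure D4:**
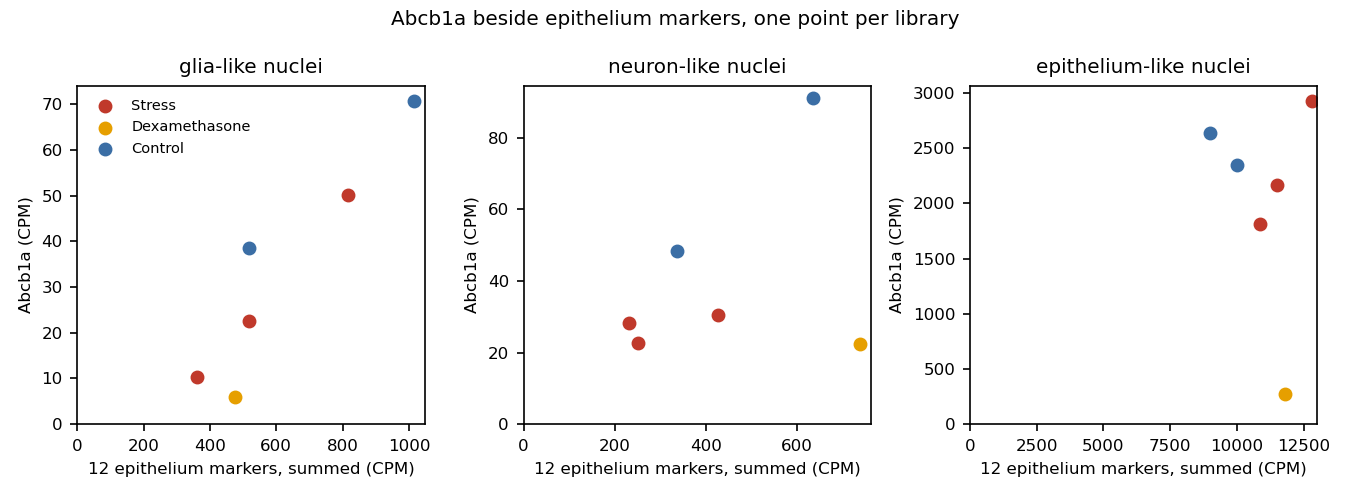
Abcb1a against the summed 12 epithelial markers, both in CPM, in glia-like, neuron-like and epithelium-like nuclei, with 1 point per library. The Dexamethasone point is at 5.88 CPM of Abcb1a in glia-like nuclei with 475 CPM of epithelial markers; the Control points are at 38.5 and 70.7 CPM of Abcb1a with 518 and 1015 CPM of epithelial markers.

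The other members in Dexamethasone glia-like nuclei did not pass. An unadjusted p under 0.05 was reached by 4 of them including Abcb1a, 2 higher and 2 lower, and by 18.5% of all genes. Dexamethasone lay outside both Control libraries for 14 of the 21, where 75.3% of all genes did, and the median log2 difference was -0.32, against -0.05 over all genes. Abca8a had 428 CPM in Dexamethasone, inside the Control range (log2 difference -0.02 ± 0.35, adjusted p = 0.984, edgeR). Abca8b had 171 CPM in Dexamethasone, below both Control libraries (log2 difference -0.52 ± 0.31, adjusted p = 0.393, edgeR).

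None of the 24 members tested in Stress neuron-like nuclei passed, none passed by DESeq2, and of all genes tested 0% passed. An unadjusted p under 0.05 was reached by 4 members, 1 higher and 3 lower, and by 10.1% of all genes; 5 members did not overlap between groups, where 27.3% of all genes did not. Abca2 had 34.0, 28.7 and 48.7 CPM in Stress, against 13.8 and 14.7 CPM in Control (log2 difference 1.37 ± 0.43, adjusted p = 0.304, edgeR). Abcc8 had the values given above, all 3 Stress libraries lying below both Control libraries (log2 difference -0.76 ± 0.23, adjusted p = 0.297, edgeR). With stricter nucleus filters the difference was 0.17, but nuclei were clustered anew there. That clustering counted 60 nuclei led by Tac1 and Penk as neuron-like, whereas cluster 3, led by Penk, was left out of the main class. Filters and class make-up thus changed together. Abcb1a had 28.3, 30.6 and 22.7 CPM in Stress, against 48.4 and 91.1 CPM in Control (log2 difference -1.37 ± 0.35, adjusted p = 0.214, edgeR). All 3 of these separated Stress from Control without passing.

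Smaller neuronal differences in Stress were as follows. Abcc1, a pump for glutathione conjugates, had 85.0, 124 and 112 CPM in Stress, against 181 and 123 CPM in Control (log2 difference -0.52, adjusted p = 0.463, edgeR). Stress 2 lay just above the lower Control library, so the groups overlapped. Abca1 had 125, 61.2 and 67.4 CPM in Stress, against 69.1 and 38.2 CPM in Control, and Abca8b had 119, 87.2 and 74.7 CPM in Stress, against 82.9 and 79.3 CPM in Control; both overlapped as well.

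In Dexamethasone neuron-like nuclei none of 25 members passed and DESeq2 called 0, where 0.494% of all genes tested passed, 0.482% higher and 0.0118% lower. An unadjusted p under 0.05 was reached by 5 members, each lower, and by 12% of all genes. Dexamethasone lay outside Control for 19, where 71.1% of all genes did. Abcc8 had 32.7 CPM in Dexamethasone, against 82.9 and 85.2 CPM in Control (log2 difference -1.47 ± 0.37, adjusted p = 0.110, edgeR), and with cluster 3 counted as neurons that difference was -0.02 (adjusted p = 0.992, edgeR); with stricter nucleus filters it was 1.13. The stricter filters came with a new clustering that counted a Tac1 and Penk cluster as neuron-like. Cluster 14 held 65.1% of neuron-like nuclei in Dexamethasone and 6.4% and 8.47% in Control. By UMIs, cluster 14 gave 84997 of 489752 in Dexamethasone. Cluster 16, higher in Abcc8, gave 82998, against 180729 of 578776 and 131884 of 340335 in Control. Cluster 7, lower in Abcc8, gave 217202, against 191112 and 73278 in Control. Their part in the Abcc8 difference was not tested. Abcb1a had 22.5 CPM in Dexamethasone, against 48.4 and 91.1 CPM in Control (log2 difference -1.68 ± 0.52, adjusted p = 0.199, edgeR). Abcb10 had 22.5 CPM in Dexamethasone, against 44.9 and 52.9 CPM in Control (log2 difference -1.21 ± 0.48, adjusted p = 0.331, edgeR). All 3 were below both Control libraries. Of the members on the higher side, Abca2 had 20.4 CPM, Abcf3, a translation regulator, 20.4 CPM and Abce1, a ribosome recycling factor, 36.8 CPM in Dexamethasone, each with an adjusted p of at least 0.841 (edgeR). Abca8b had 65.3 CPM in Dexamethasone, below both Control libraries (log2 difference -0.43, adjusted p = 0.688, edgeR).

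**Figure D5:**
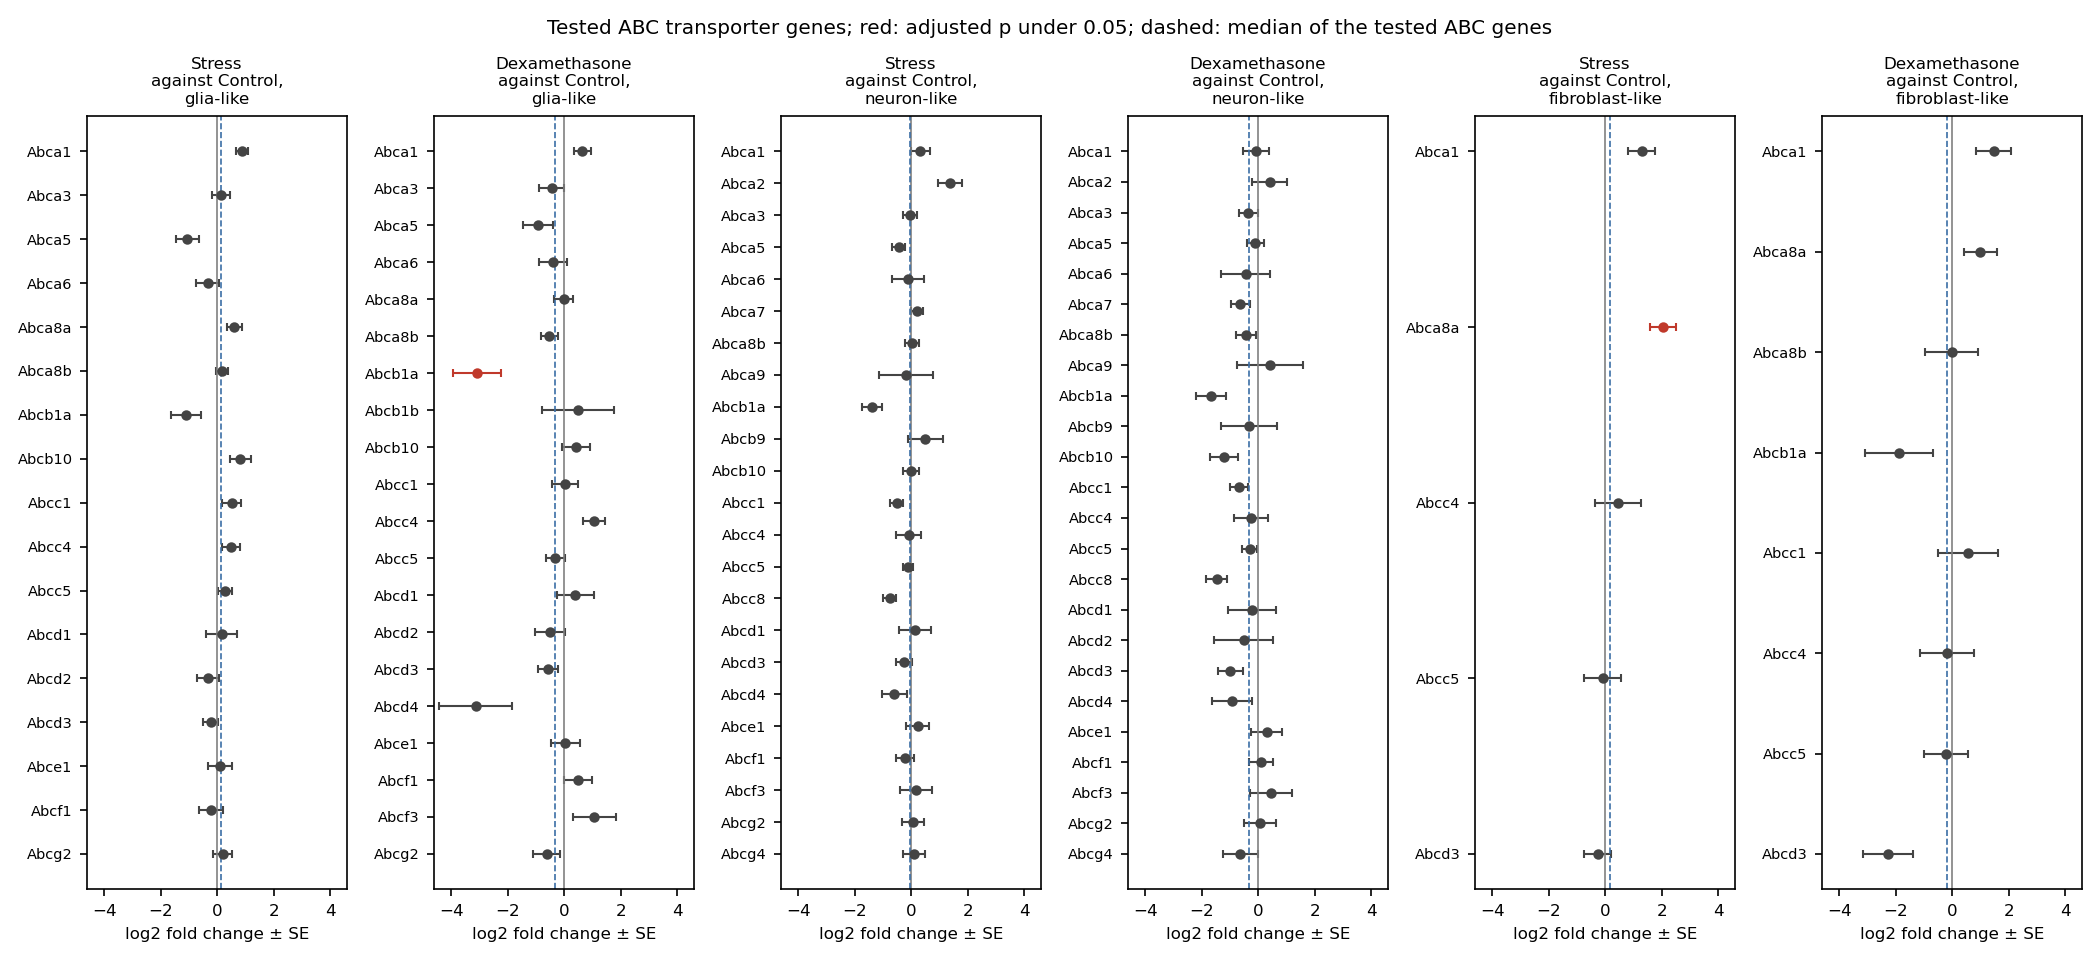
Log2 difference ± SE of the members tested and reported, for Stress and Dexamethasone against Control in glia-like, neuron-like and fibroblast-like nuclei; red marks an adjusted p under 0.05 and the dashed line the median of all members tested. Red marks Abca8a in Stress fibroblast-like nuclei and Abcb1a in Dexamethasone glia-like nuclei.

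The stress effect was also compared between glia-like and neuron-like nuclei by an interaction term. None of 23 members passed, 1 had an unadjusted p under 0.05, and 0.0849% of all genes tested passed. Abcc1 was that member: its log2 stress effect was 1.04 ± 0.39 higher in glia-like than in neuron-like nuclei (adjusted p = 0.409, edgeR). For Abca8a the glia-like minus neuron-like value was -1.59 ± 0.97 (adjusted p = 0.718, edgeR), but it was too low to be tested in neuron-like nuclei alone, and with 1 library left out the value ran from -4.53 to -0.48. Abcb10, Abcc5 and Abca5 had differences of 0.81, 0.40 and -0.72 on the log2 scale, with adjusted p of 0.718 to 0.797 (edgeR).

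In smooth muscle-like nuclei none of 9 members passed in Stress or in Dexamethasone, and DESeq2 called 0 in both; 2 in each had an unadjusted p under 0.05. Of all genes tested 0.353% passed in Stress, 0.176% higher and 0.176% lower, and 0.903% in Dexamethasone, 0.799% higher and 0.103% lower. Unadjusted p values under 0.05 were reached by 11.2% of all genes in Stress and 11.4% in Dexamethasone. In Stress 4 members did not overlap with Control, where 30.1% of all genes did not, and in Dexamethasone 5, where 63.6% did not. Abca1 had 77.1, 96.6 and 157 CPM in Stress and 125 CPM in Dexamethasone, against 48.0 and 33.3 CPM in Control. Its log2 difference was 1.34 ± 0.56 in Stress (adjusted p = 0.383, edgeR) and 1.45 ± 0.63 in Dexamethasone (adjusted p = 0.386, edgeR). Abca1 was above both Control libraries in all 4 treated libraries. Abca3, which loads lipid into lamellar bodies in the lung, had 56.0, 75.9 and 112 CPM in Stress and 67.4 CPM in Dexamethasone, against 9.61 and 33.3 CPM in Control. Its log2 difference was 2.04 ± 0.79 in Stress (adjusted p = 0.343, edgeR) and 1.73 ± 0.88 in Dexamethasone (adjusted p = 0.477, edgeR). Abca3 also lay above Control in the same 4 libraries, but its Control values rest on 1 and 2 UMIs and those of Abca1 on 5 and 2. With 1 library left out, the Stress difference of Abca3 ran from 1.25 to 2.97, and its Dexamethasone difference from 0.91 to 2.64.

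The make-up of the smooth muscle-like class moved with the groups. Its cluster 6 held 29.4%, 26.8% and 41.6% of nuclei in Stress, 22.4% in Dexamethasone and 14.5% and 8.70% in Control, the rest being in cluster 5. The 12 glial markers, 11 of them with a UMI and Entpd2 at 0, summed there to 168, 75.9 and 55.8 CPM in Stress, 613 CPM in Dexamethasone and 67.2 and 16.7 CPM in Control. Their part in the Abca1 and Abca3 differences was not tested.

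Among the multidrug pumps of smooth muscle-like nuclei, Abcc4, an exporter of cyclic nucleotides and prostaglandins, had 70.1, 41.4 and 90.7 CPM in Stress and 40.4 CPM in Dexamethasone, against 96.1 and 150 CPM in Control. Its log2 difference was -0.84 in Stress (adjusted p = 0.592, edgeR) and -1.63 ± 0.67 in Dexamethasone (adjusted p = 0.347, edgeR). Abcc4 was below both Control libraries throughout. Abcc5 had 105, 124 and 119 CPM in Stress and 138 CPM in Dexamethasone, against 76.9 and 99.9 CPM in Control, all 4 above Control. Abcd3 had 147, 110 and 83.7 CPM in Stress and 74.1 CPM in Dexamethasone, against 163 and 99.9 CPM in Control, and Abcc1 had 70.1, 159 and 101 CPM in Stress, against 67.2 and 200 CPM in Control. In Stress both overlapped with Control. Abcc9 in Dexamethasone differed from Control by -0.53 ± 0.41 on the log2 scale (adjusted p = 0.745, edgeR).

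In epithelium-like nuclei Stress could be compared with Control and Dexamethasone, with 6 nuclei, could not. None of 7 members passed in edgeR or in DESeq2, 0 had an unadjusted p under 0.05, and of all genes tested 0% passed and 8.41% had an unadjusted p under 0.05. Of these members 2 did not overlap between groups, where 27.2% of all genes did not. Abcb1a, at the levels given above, differed by -0.02 ± 0.37 on the log2 scale (adjusted p = 1.00, edgeR). The class was spread over different clusters: cluster 0 held 59.5%, 10% and 26.9% of it in Stress and 82.8% and 100% in Control, cluster 2 held 31.6%, 87.2% and 26.9% in Stress and 7.81% and 0% in Control, and cluster 8 held 46.2% in Stress 3. Abcg5 had 45.3, 56.5 and 66.1 CPM in Stress, against 116 and 27.6 CPM in Control, the last on 1 UMI (log2 difference -0.68, adjusted p = 0.805, edgeR). Abcc1 had 45.3, 61.5 and 66.1 CPM in Stress, against 75.0 and 193 CPM in Control, and was below Control in all 3 libraries without passing (log2 difference -0.80 ± 0.54, adjusted p = 0.751, edgeR). Abcd3 had 25.9, 78.1 and 198 CPM in Stress, against 150 and 221 CPM in Control, and the groups overlapped.

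Partner genes were counted in 7 lists. Over 208 gene tests in the 9 comparisons, 3 passed in edgeR, of which 2 are given here, where 0% to 5.91% of all genes passed in each comparison; 32 had an unadjusted p under 0.05 and DESeq2 called 1. Of the 20 genes of sterol sensing and efflux, 12 were tested in Stress glia-like nuclei, 0 were higher and 2 were lower, where 2.03% of all genes tested passed and 0.535% were lower. Insig1, which holds the sterol sensor complex in the endoplasmic reticulum, had 25.8, 20.9 and 23.0 CPM in Stress, against 77.1 and 98.1 CPM in Control, and fell, with a log2 difference of -1.96 ± 0.30 (adjusted p = 0.00488, edgeR). Scarb1, the high-density lipoprotein receptor, had 19.3, 29.3 and 27.7 CPM in Stress, against 66.4 and 73.0 CPM in Control, and fell as well, with a log2 difference of -1.45 ± 0.32 (adjusted p = 0.0304, edgeR); DESeq2 called Insig1 and not Scarb1. For both genes every Stress library was below both Control libraries. Besides DESeq2, neither gene was followed under the other settings or with a library left out. The part of the glial make-up given above in these differences was not tested. None passed in the lists of ABC proteins with other symbols, xenobiotic sensing, mitochondrial haem and iron-sulphur genes and ribosome recycling, in any comparison. Kcnj8 and Kcnj11, the channel partners of Abcc9 and Abcc8, were too low to be tested anywhere.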

How the data were processed

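The authors deposited UMI counts per gene and nucleus barcode, made with Cell Ranger 4.0.0 for Control and Stress and 5.0.1 for Dexamethasone, per the file headers; the submitters' processing notes name version 5 and mm10. This version difference and the treatment cannot be told apart in the Dexamethasone comparisons. Whether intronic reads were counted is not given in the sources used here.

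From these counts, a floor of 300 genes and a ceiling of 5% mitochondrial UMIs were set per nucleus, doublets were removed with scrublet, and nuclei were clustered with scanpy 1.11.5 (2000 variable genes without the ABC genes, 30 components, 15 neighbours, resolution 1.0). Cluster names come from marker lists and were rebuilt here. Counts were summed per class and library with at least 10 nuclei and tested by edgeR 4.0.16 (R 4.3.3; filterByExpr, TMM, quasi-likelihood F test, Benjamini-Hochberg adjustment over all genes tested, threshold 0.05), with DESeq2 1.42.0 as an alternative; the procedure was tested on simulated data. A standard error is the log2 difference divided by the root of F. Depth limits precision: some CPM values rest on 1 to 5 UMIs, and no intervals are printed. Library numbers name libraries only.

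Members tested had to pass the low-count filter. The rule for named genes took each member that passed, otherwise the 3 smallest p per direction in each class, the class-assigned members, and always Abcb1a, Abca8a and Abca8b; Abca1 in Stress fibroblast-like nuclei was added after its values were seen. Members and lists were chosen with earlier results of these data known. The values of 1 member and of 1 partner gene are not reported here; both stayed in every fit and count. Positions are from GENCODE M21 (GRCm38).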

Additional observations from a re-analysis of the deposited data

Results flagged for a closer look

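Abcc4 and Abcc5 had log2 differences of opposite sign in different classes under Stress, where Stress and Control libraries did not overlap. They were picked from these data for that. Of all genes tested in Stress, 29.1% did not overlap in glia-like, 27.3% in neuron-like and 30.1% in smooth muscle-like nuclei. These differences between classes were not tested. The log2 difference of Abcc4 from Control was 0.49 in glia-like nuclei and -0.84 in smooth muscle-like nuclei. That of Abcc5 was -0.11 in neuron-like nuclei and 0.34 in smooth muscle-like nuclei. None of the 4 values passed the adjusted threshold.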

How the results depend on the processing

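Among alternative values, 132 counts of members passing were unchanged or close, 8 crossed upward and 11 downward; for single members 650 kept direction and side of the threshold, 37 reversed, 10 became calls and 11 lost them. The alternatives of clusters alone, cluster 3 added, and Control 1 with Stress 1 left out (the libraries of fewest UMIs per nucleus) were chosen after seeing the data. The cause of the changes was not tested. The number of all genes called can move with the setting too and is not printed beside the member counts that follow. A change in a member count is therefore not read as particular to the members. In Stress glia-like nuclei 0 members passed, but 1 (Abca1) did without the low-count filter, 2 (Abca1 and Abcb1a) without the mitochondrial filter and 3 (Abca8a, Abca1 and Abcb1a) without Control 1 and Stress 1; leaving out 1 library gave 0 to 1. In Dexamethasone glia-like nuclei 1 passed, but 0 with DESeq2, with stricter filters (500 genes, 2% mitochondrial UMIs), in cluster 9 alone or in cluster 10 alone, and leaving out 1 library gave 0 to 1. In Stress neuron-like nuclei Abcb1a alone, 1 member, passed without the low-count filter or without Control 1 and Stress 1; in Dexamethasone neuron-like nuclei it was again the 1 that passed without Control 1 and Stress 1. In Stress fibroblast-like nuclei 0 passed with stricter filters, without the mitochondrial filter or with the replicate block, and 0 to 1 with 1 library left out. The glia-neuron interaction had 1 call without the mitochondrial filter.

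Log2 differences that changed sign were as follows. Without the mitochondrial filter: Abcb10 -0.022 and Abca6 0.00040 in Stress glia-like nuclei, Abca8a 0.086 in Dexamethasone glia-like nuclei, Abca8b 0.67 in Dexamethasone fibroblast-like nuclei, and Abcb10 -0.25 and Abca8a 0.11 in the interaction. With stricter filters: Abcc8 0.17 and Abca8b -0.30 in Stress neuron-like nuclei, Abcc8 1.13 in Dexamethasone neuron-like nuclei, Abcb1a 0.35 in Stress epithelium-like nuclei, and Abcc9 0.00049 in Dexamethasone smooth muscle-like nuclei. Nuclei were clustered anew under stricter filters, without the mitochondrial filter and with doublets kept, so class membership changed too. Under stricter filters a Tac1 and Penk cluster was counted as neuron-like. With counts thinned: Abca8a 0.19 in Dexamethasone glia-like nuclei and Abca5 0.088 in the interaction. With doublets kept: Abca8a 0.016 in Dexamethasone glia-like nuclei, Abcb1a 0.017 in Stress epithelium-like nuclei and Abca8b 0.010 in Dexamethasone fibroblast-like nuclei. Without the low-count filter: Abcb1a 0.14 in Stress epithelium-like nuclei and Abca8b 0.12 in Dexamethasone fibroblast-like nuclei, where DESeq2 gave 0.0045. In cluster 10 alone: Abca8b 0.24 and Abca8a 0.50 in Dexamethasone; in cluster 5 alone: Abcd3 0.089 in Stress smooth muscle-like nuclei. Without Control 1 and Stress 1: Abca8a 0.55 in Dexamethasone glia-like nuclei and Abca8b -0.070 in Stress neuron-like nuclei. Leaving out 1 library gave -0.70 to 0.14 for Abca6 in Stress glia-like nuclei, -0.42 to 0.54 for Abca8a in Dexamethasone glia-like nuclei, -0.084 to 0.24 for Abca8b in Stress neuron-like nuclei, -0.014 to 0.93 for Abce1 in Dexamethasone neuron-like nuclei, -0.26 to 0.30 for Abcb1a in Stress epithelium-like nuclei, -0.64 to 0.061 for Abcd3 and -0.95 to 0.62 for Abcc1 in Stress smooth muscle-like nuclei, and -0.29 to 0.41 for Abca8b and -0.13 to 2.13 for Abcc1 in Dexamethasone fibroblast-like nuclei.

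Library numbers are shared by the groups only as names. Over 2 pairs, the correlation of same-numbered libraries' differences was -0.11 in glia-like, 0.08 in neuron-like, -0.03 in epithelium-like, 0.09 in smooth muscle-like and 0.01 in fibroblast-like nuclei. With the replicate block, Abca8a in Stress fibroblast-like nuclei had a log2 difference of 2.17 (adjusted p = 0.258, edgeR), Abcb1a in Dexamethasone glia-like nuclei had -2.53 (adjusted p = 0.0410, edgeR) and Abcb1a in Stress epithelium-like nuclei had 0.16. Under the block the count of all genes called went to 3 in Stress fibroblast-like nuclei, against 39 without it, to 201 in Dexamethasone neuron-like nuclei, against 42, and to 71 in Stress neuron-like nuclei, against 0. Epithelium-like nuclei could not be fitted without the mitochondrial filter. Low UMI counts limit most members.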

Other observations

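Abcb1b, the paralog of Abcb1a, was chosen after its values were seen and was too low to be tested in fibroblast-like nuclei. It had 40.6, 103 and 73.4 CPM there in Stress, 53.7 CPM in Dexamethasone and 0 and 0 CPM in Control, so every treated library was above both Control libraries; it overlaps Gm5106 on the other strand. Pooled, it had 53.2 CPM in fibroblast-like and 9.56 CPM in glia-like nuclei.

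Clusters outside the ranked classes held some members. Abcg3 reached 213 CPM in cluster 20, with 20 of its 37 UMIs, and Abca1 reached 351 CPM there. Abcc3, a pump for conjugated bile acids and glucuronides, had 136 CPM in cluster 17 and 99.4 CPM in cluster 4. Abcb1a was at 407 CPM in cluster 4, against 2834, 2486 and 2085 CPM in the epithelium-like clusters 2, 8 and 0. Members at fewer than 30 UMIs in a class but leaning to epithelium-like nuclei included Abca12, at 18.2 CPM against 1.28 CPM in neuron-like nuclei, Abca13, at 21.6 CPM against 2.57 CPM in neuron-like nuclei, and Abcg8, at 23.2 CPM against 2.72 CPM in cycling cell-like nuclei.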
